A study of Mus musculus with 18 samples.

Results

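The 39 genes described here code for proteins that carry a cell through mitosis and cytokinesis. They were taken by symbol from a list of 39 names, among them Mki67, Top2a, Ccnb1, Aurkb, Bub1 and Prc1, and all 39 were found among the 20825 genes of the deposited expression table. By role, 10 of them act at entry into mitosis, 9 build or move the spindle, 11 form the kinetochore or its checkpoint, 4 act at anaphase and 5 at cytokinesis. The rule goes by gene name and uses no measured value, but the names were chosen with earlier results of these data known.

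Most tubular epithelial cells of an adult kidney are quiescent, and after ischemic injury surviving cells re-enter the cell cycle and divide to refill the tubule. The mitotic genes are transcribed late in the cycle, in G2 and M phase. They are held silent in resting cells by the DREAM repressor complex and are activated in cycling cells by B-MYB with MuvB and by FOXM1, largely through CHR elements and CCAAT boxes close to the start of transcription. Their proteins include the cyclin B and CDK1 kinase, the motors and kinases of the spindle, the checkpoint that delays anaphase, and the furrow proteins that separate the daughter cells, while securin and cyclin B are destroyed at anaphase.

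RNA was sequenced from kidneys of C57BL/6 mice labelled as post natal week 11, in 18 libraries of 6 groups with 3 biological replicates each. In the unilateral ischemia-reperfusion groups (UIR), the right renal pedicle was clamped for 45 minutes and released while the left kidney stayed intact, and mice were killed 1, 3 or 21 days later. The controls were mice given a sham treatment, whose steps the labels do not describe, taken at the same 1, 3 and 21 days. Neither the kidney sequenced nor the sex of the mice is named, and every group shares strain, age and tissue. The model leaves each injured animal a left kidney that was not clamped.

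Expression is given as FPKM, a measure of abundance per transcript length and per library size. Deposited FPKM summed to between 424207 and 549490 per library, and between 12000 and 14156 genes reached 1 FPKM. Read counts are not used here, so the absolute depth is unknown. The step size of 193 sparse genes placed the libraries between 0.818 and 1.13 times their median depth. Each library's value rests on only 18 to 64 of these genes, and the lowest, sham day 3 replicate 3, on 28. Some libraries of 1 group stood apart in cell type markers. In UIR day 3, the summed FPKM of 7 T and NK cell markers was 47.2, 28.3 and 7.13 in replicates 1, 2 and 3. In UIR day 21, the sum of 7 proximal tubule markers was 1310, 1393 and 272 FPKM. Markers of proximal tubule, distal nephron and podocyte were detected in all 18 libraries, as the kidney label requires, and none of the 65 marker genes used here was at 0 in every library.

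Promoters are shown first because the members share sequence features that their choice did not use. RefSeq promoter sequences (build GRCm38.p6, from 250 bases before to 50 bases after each annotated start) were held for 33 of the 39 members, in 35 promoters. The members Ccna2, Cdc25c, Foxm1, Tpx2, Aurkb and Kif20a had no entry. For 23 of the 33, the 50 bases after the start lay inside a transcript of the gene. The start, and so the window and the distances, is less certain for the others. Both strands were searched. The CHR element was taken as TTTGAA and as the palindrome TTCGAA, which was counted once per position, and the CCAAT box as its own letters. An E2F-type site was any of 4 forms, written TTCCCGC for the first of them, then TTGGCGC for the next, TTCGCGC for the following form and TTGCCGC for the last. The 200 bases before the start are printed below for the 4 members with both a CHR element and a CCAAT box that had the highest log2 fold at day 3, on the gene's strand, with CHR elements and CCAAT boxes in capitals (a site on the other strand reads TTCAAA or ATTGG). They lie on the minus strand at chr7:135716380-135716579 (Mki67), chr9:70421555-70421754 (Ccnb2), chr4:118437344-118437543 (Cdc20) and chr11:99024190-99024389 (Top2a).
Mki67: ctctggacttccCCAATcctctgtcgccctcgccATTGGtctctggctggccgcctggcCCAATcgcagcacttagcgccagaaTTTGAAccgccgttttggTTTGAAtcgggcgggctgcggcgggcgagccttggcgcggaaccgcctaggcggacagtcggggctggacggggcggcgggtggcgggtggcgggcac
Ccnb2: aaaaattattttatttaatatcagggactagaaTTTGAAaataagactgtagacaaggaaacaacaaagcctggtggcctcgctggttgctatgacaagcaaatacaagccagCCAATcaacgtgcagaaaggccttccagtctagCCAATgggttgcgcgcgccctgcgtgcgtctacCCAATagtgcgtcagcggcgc
Cdc20: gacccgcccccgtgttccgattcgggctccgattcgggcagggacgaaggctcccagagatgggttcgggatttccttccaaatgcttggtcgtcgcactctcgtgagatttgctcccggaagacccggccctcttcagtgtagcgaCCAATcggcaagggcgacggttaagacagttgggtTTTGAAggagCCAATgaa
Top2a: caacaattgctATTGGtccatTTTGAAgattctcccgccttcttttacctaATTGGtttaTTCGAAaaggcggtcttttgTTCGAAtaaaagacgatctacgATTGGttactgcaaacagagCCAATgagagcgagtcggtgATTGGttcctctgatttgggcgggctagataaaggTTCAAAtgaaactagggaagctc

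Of the 6 members with neither motif (Birc5, Melk, Mad2l1, Nuf2, Nusap1 and Pttg1), the 2 shown have the highest and the lowest log2 fold at day 3 and were picked after their values were seen. Birc5 lies on the plus strand at chr11:117849037-117849236 and Pttg1 on the minus strand at chr11:43425982-43426181. Neither stretch holds the searched letters, so no capitals appear.
Birc5: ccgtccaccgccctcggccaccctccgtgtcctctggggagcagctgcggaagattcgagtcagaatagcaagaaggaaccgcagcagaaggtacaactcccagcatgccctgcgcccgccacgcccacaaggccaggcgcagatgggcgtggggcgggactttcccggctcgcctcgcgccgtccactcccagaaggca
Pttg1: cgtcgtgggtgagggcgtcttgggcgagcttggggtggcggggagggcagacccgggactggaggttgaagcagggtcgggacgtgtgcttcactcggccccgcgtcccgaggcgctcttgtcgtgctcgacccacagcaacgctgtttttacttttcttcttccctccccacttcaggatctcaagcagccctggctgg

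A CHR element was found in 74.3% of the 35 member promoters, against 19.2% of all 32851 promoters of the same length and 14.2% of the 14526 promoters of genes tested here. A CCAAT box was found in 71.4% of member promoters, against 37.4% of all promoters. Both stood together in 62.9% of member promoters and in 7.52% of all promoters. The E2F-type site was in 17.1% of member promoters, against 9.57% of all promoters and 15.4% of promoters of tested genes. Of 34 CHR hits, 23 lay within 60 bases of the start, and of 51 CCAAT hits, 30 lay between 20 and 120 bases before it. These are matches of letters and say nothing of binding. Birc5, with neither motif in the window, had a log2 fold of 5.02 at day 3, against 5.28 for Mki67 with both, and Pttg1, also with neither, was called higher in UIR at no day.

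**Figure D1:**
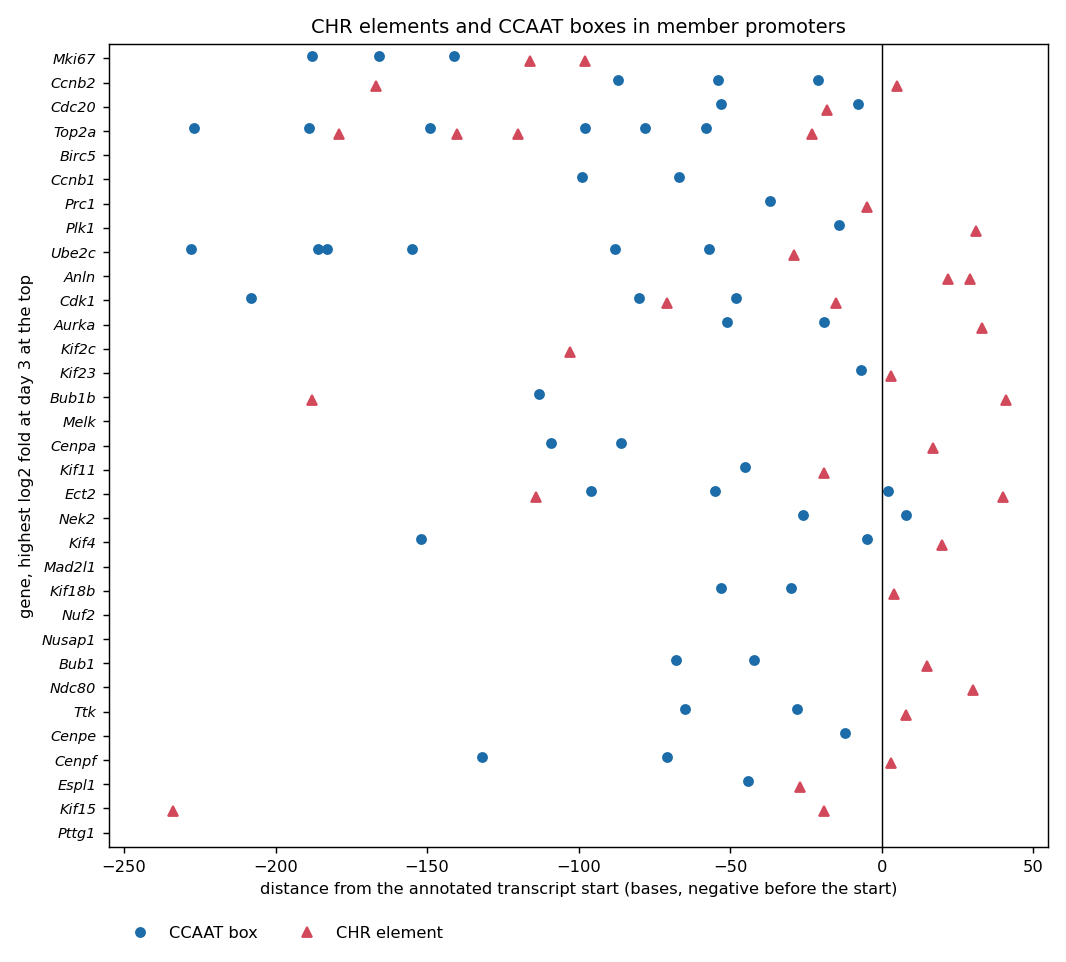
Position of each CHR element (red triangle) and CCAAT box (blue circle) in the promoters of 33 members, as distance in bases of its leftmost base from the annotated start, for the entry listed first where a gene has 2. Genes run from the highest to the lowest log2 fold of UIR over sham at day 3, and the 6 rows without a mark hold neither motif between 250 bases before and 50 after the start.

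The members were almost silent in sham kidneys, with Pttg1 as the exception. Over the 38 members without Pttg1, the median of the gene means was 0.445 FPKM in UIR day 1, 22.9 FPKM in UIR day 3 and 2.94 FPKM in UIR day 21, against 0.325, 0.322 and 0.397 FPKM in sham days 1, 3 and 21. All sham libraries were under 1 FPKM for 26 of these 38 genes, and the highest sham value of any was 5.32 FPKM (Nek2, sham day 1). The lowest UIR day 3 value among them was 4.20 FPKM (Kif15). The summed FPKM of the 38 genes was 994, 907 and 1122 in the UIR day 3 libraries, against 18.3, 19.3 and 19.7 in sham day 3. Replicate 3 was the highest UIR day 3 library for 33 of the 38 genes and replicate 2 the lowest for 31, so most members shared 1 order of the UIR day 3 libraries. In UIR day 1 they did not, as replicates 1, 2 and 3 were the highest for 14, 13 and 11 genes.

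**Figure D2:**
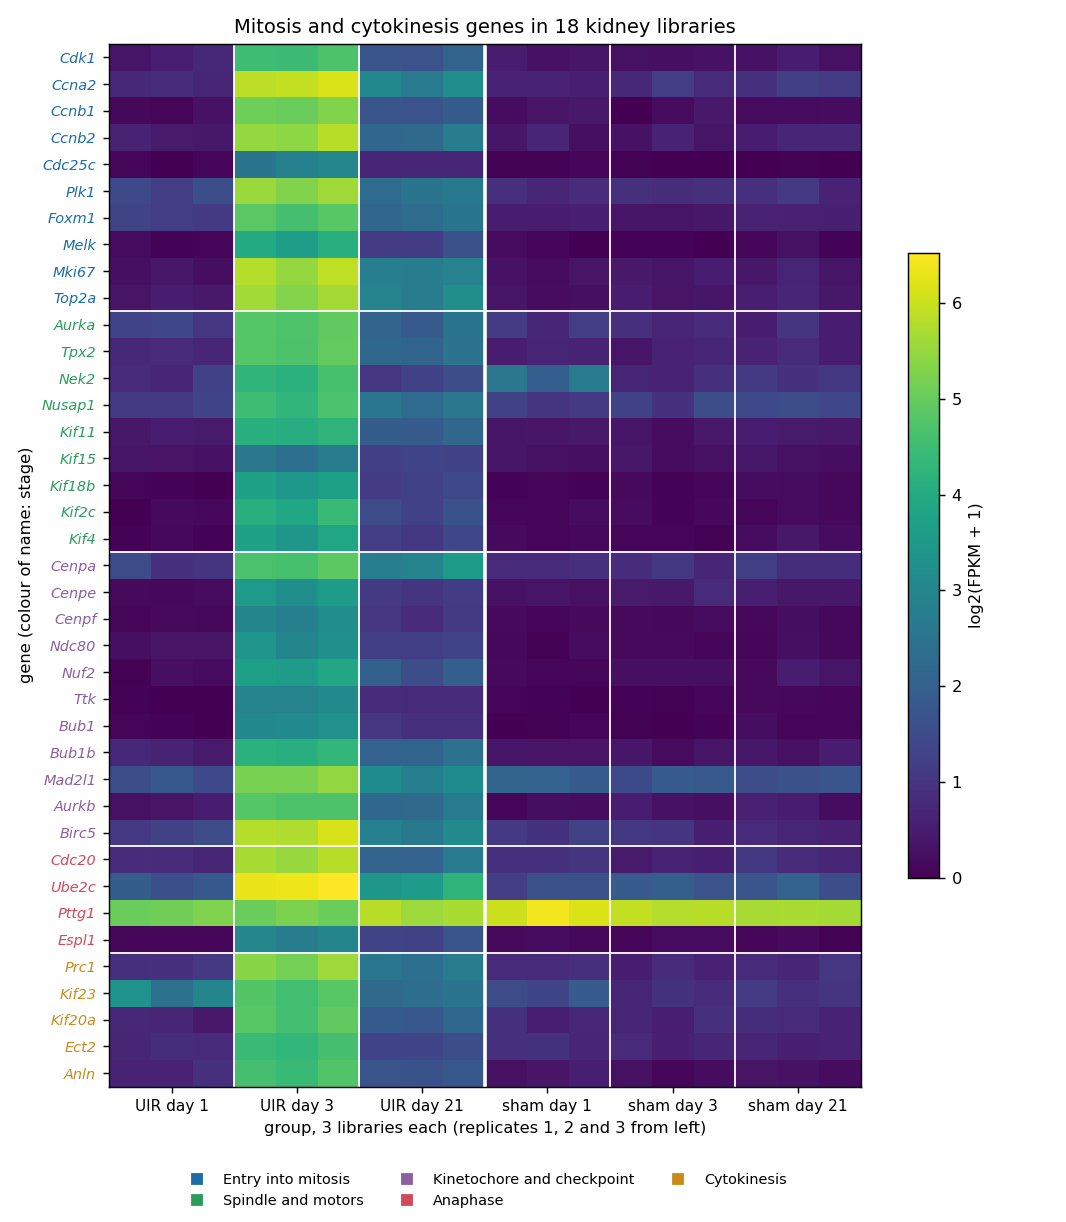
Heat map of log2(FPKM + 1) for 39 members (rows, grouped by stage) in 18 libraries (columns, UIR groups left and sham groups right). UIR day 3 is bright in all rows, with 38 members between 4.20 and 91.1 FPKM, while the sham columns are dark except for Pttg1, which lies between 48.7 and 84.0 FPKM there.

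At day 1 the members as a group were close to sham, and 7 of 39 passed the test. Kif23, Foxm1, Plk1 and Anln were higher in UIR, while Nek2, Pttg1 and Mad2l1 were lower. Each comparison was tested with limma on log2(FPKM + 1), a scale that understates the fold of genes with low FPKM, with Benjamini-Hochberg adjustment over 14716 genes and a threshold of 0.05. Among all genes tested, 28.5% were called higher and 31.1% lower at day 1, so 4 higher and 3 lower of 39 are smaller shares than the background. With 0.1 FPKM added before the log, 6 members were higher and 4 lower, with 60.6% of all genes called. With library weights in the fit, 3 were higher and 2 lower, with 59.6% of all genes called. The UIR libraries lay above all sham libraries of that day in 11 members and below them in 6, against 29.5% and 31.7% of all genes, and overlapped in 22. The median log2 fold was 0.04 over the members and -0.03 over all genes. In bulk tissue, fewer cells of a type and less RNA per cell cannot be told apart, here and in all that follows.

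Kif23, the motor subunit of centralspindlin at the midzone and midbody, had 9.04, 4.53 and 6.90 FPKM in UIR day 1, against 1.82, 1.59 and 2.65 FPKM in sham day 1. The UIR libraries were all above the sham libraries, with a log2 fold of 1.35 ± 0.18 (SE; limma, adjusted p = 9e-06). Foxm1, the forkhead transcription factor of G2 and M phase genes, had 1.52, 1.26 and 1.14 FPKM in UIR, against 0.40, 0.41 and 0.50 FPKM in sham. It did not overlap either, with a log2 fold of 0.68 ± 0.10 (limma, adjusted p = 3e-05). Plk1, the polo-like kinase that drives mitotic entry, had 1.73, 1.26 and 1.94 FPKM in UIR, against 0.88, 0.63 and 0.78 FPKM in sham. Its groups were apart and its log2 fold was 0.58 ± 0.13 (limma, adjusted p = 0.0014). Anln, the anillin scaffold of the contractile ring, had 0.53, 0.58 and 0.84 FPKM in UIR, against 0.23, 0.31 and 0.47 FPKM in sham. Its log2 fold of 0.30 ± 0.11 passed (limma, adjusted p = 0.025), but not when UIR day 1 replicate 3 (0.22, adjusted p = 0.11) or sham day 1 replicate 1 or 2 was left out (adjusted p = 0.10 and 0.062). The call was also lost with 5 FPKM added before the log (limma, adjusted p = 0.22) and with library weights (adjusted p = 0.17). A fit of only the day 1 groups lost it too (limma, adjusted p = 0.053).

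Nek2, a kinase that separates centrosomes, had 0.73, 0.64 and 1.38 FPKM in UIR day 1, against 5.05, 2.86 and 5.32 FPKM in sham day 1. The sham libraries were the high ones, and the log2 fold was -1.48 ± 0.19 (limma, adjusted p = 7.7e-06). Pttg1, securin, which holds separase inactive until anaphase, had 31.7, 33.5 and 37.6 FPKM in UIR, against 64.3, 84.0 and 72.0 FPKM in sham. All 3 UIR libraries lay below all 3 sham libraries, with a log2 fold of -1.07 ± 0.10 (limma, adjusted p = 1.6e-07). Mad2l1, the MAD2 protein of the spindle checkpoint, had 1.98, 2.5 and 1.69 FPKM in UIR, against 3.38, 3.13 and 2.76 FPKM in sham. Its log2 fold was -0.43 ± 0.14 (limma, adjusted p = 0.013), and without UIR day 1 replicate 3 it was -0.34 (adjusted p = 0.058). With quantile normalization (limma, adjusted p = 0.072) and with library weights (adjusted p = 0.11) Mad2l1 did not pass either. The other 32 members did not pass, Ki-67 (Mki67, log2 fold 0.02, adjusted p = 0.88) and Cdk1 (0.15, adjusted p = 0.32) among them.

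Sham day 1 itself differed from the later sham groups in several of these genes. Nek2 was 0.61, 0.56 and 0.84 FPKM in sham day 3 and 1.16, 0.92 and 1.09 FPKM in sham day 21, so sham day 1 was the high group (log2 fold of sham day 3 over sham day 1, -1.67 ± 0.19; limma, adjusted p = 7e-06). Between sham day 3 and sham day 1, 4 members were lower in sham day 3 (Nek2, Kif23, Cdc20 and Pttg1) and none was higher, against a background of 29.7% lower and 12.8% higher. Between sham day 21 and sham day 1, 5 were lower (Nek2, Pttg1, Kif23, Mad2l1 and Birc5) and Ccna2 was higher (log2 fold 0.49), against 27.2% lower and 12.3% higher, and 3 members in all were called without sham day 21 replicate 2. With median-of-ratios scaling 51.3% of all calls between sham days 3 and 1 were higher rather than 30.1%, with 2 members higher and 2 lower, and 51.8% between sham days 21 and 1 rather than 31.1%, with 3 members higher and 3 lower. Between sham day 21 and sham day 3, limma called 0 of 39 members, 0 had an unadjusted p under 0.05, and 5 of all genes were called (0.034%). In the same 3 groups, the summed FPKM of 5 injured tubule markers was 131 to 283 in sham day 1, against 4.81 to 13.6 in sham day 3 and 3.97 to 8.36 in sham day 21; its part in the result was not tested.

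With the 6 libraries of sham days 3 and 21 as controls of UIR day 1, 7 members were higher and 2 lower, against 39.6% and 32% of all genes. Kif23 (log2 fold 2.01 ± 0.15), Foxm1 (0.71), Plk1 (0.52) and Anln (0.47) stayed higher, and Aurka (0.52), Birc5 (0.52) and Bub1b (0.25) were called higher beside them. Pttg1 (-0.62) stayed lower and Cenpe, a kinetochore motor, was called lower (-0.35). Nek2 no longer differed past the threshold (0.03 ± 0.17, adjusted p = 0.88), nor did Mad2l1 (-0.07, adjusted p = 0.61). Against the later sham groups, then, the lower call remained for Pttg1 and not for Nek2 or Mad2l1.

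**Figure D3:**
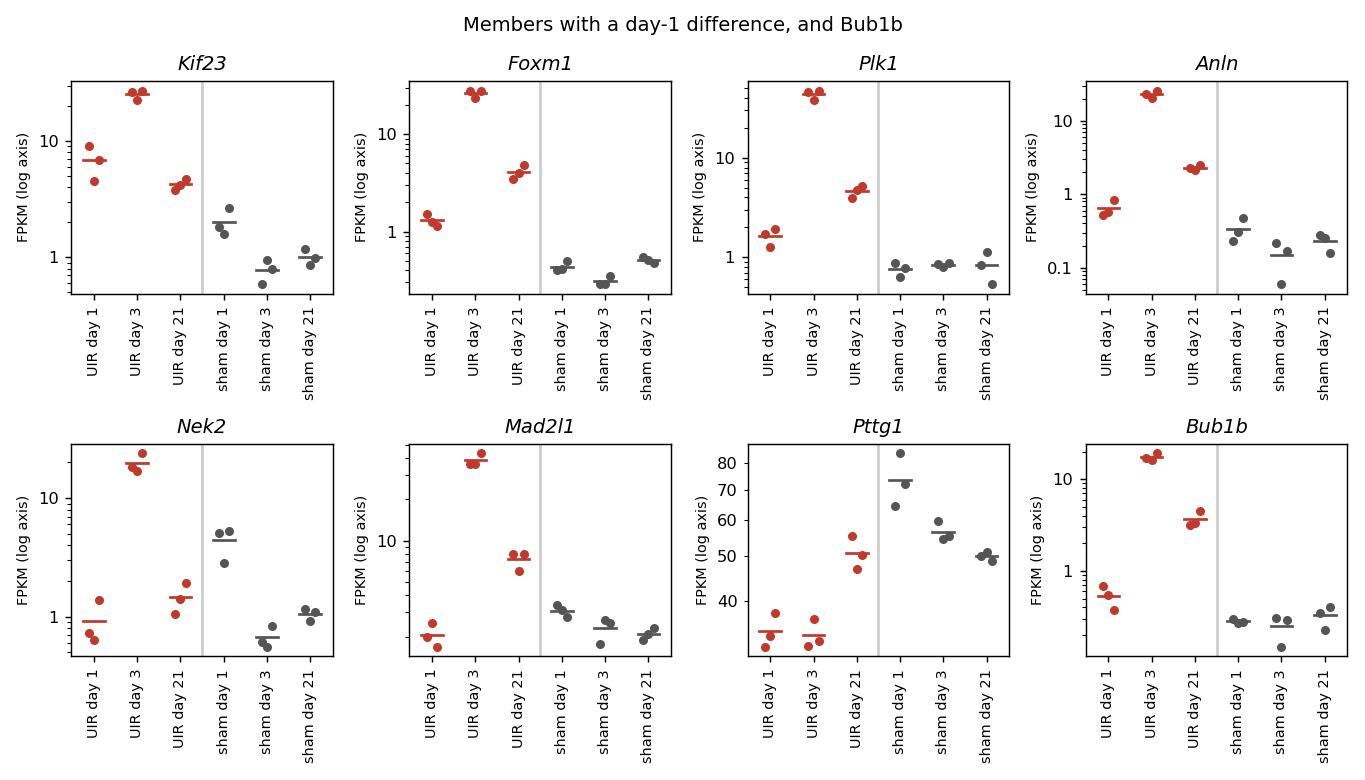
FPKM (log axis) of the 7 members called at day 1, and of Bub1b, in UIR libraries (red, left) and sham libraries (grey, right), with a bar at each group mean. Nek2 is high in sham day 1 (2.86 to 5.32 FPKM) and lower in sham days 3 and 21, while Kif23 is already at 4.53 to 9.04 FPKM in UIR day 1.

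At day 3, 38 of the 39 members were higher in UIR than in sham and Pttg1 was lower. The gain spanned all 5 roles, from cyclins and kinases of entry to the furrow proteins. The median log2 fold was 3.89 over the members and 0.44 over all genes, and among all genes 57.6% were called higher and 17.9% lower. In 38 members the UIR libraries all lay above the sham libraries, and in Pttg1 they all lay below, against a background of 59.3% above and 19.4% below. Set against the shift of all genes, the members' median was 3.45, the highest was 4.84 (Mki67) and Pttg1 was at -1.17. Under scalings that bring the all-gene median near 0, 51.3% (median of ratios) and 51.2% (quantile) of all calls were higher rather than 76.3%, and the members remained at 38 higher and 1 lower. Of the 39 members, 27 reached the filter of 1 FPKM in 3 libraries only through UIR days 3 and 21, 4 of them only through UIR day 3, and such genes had to differ; without a filter the same counts of 38 and 1 were found. Without UIR day 3 replicate 3, the library with the lowest T and NK cell sum, 38 were higher and 1 lower as well, with a median of 3.82.

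Genes of entry into mitosis had the highest median log2 fold at day 3, 4.76 over 10 genes. Mki67, Ki-67, which coats mitotic chromosomes and serves as the proliferation marker of pathology, had 54.3, 43.8 and 58.4 FPKM in UIR day 3, against 0.36, 0.30 and 0.43 FPKM in sham day 3. It was the member with the highest fold, 5.28 ± 0.11 (limma, adjusted p = 4.7e-14), and its groups were far apart. Ccnb1, cyclin B1, the activating partner of CDK1, had 33.2, 31.8 and 38.2 FPKM in UIR, against 0, 0.14 and 0.37 FPKM in sham. Its log2 fold was 4.93 ± 0.12 (limma, adjusted p = 4.7e-14). Cdk1, the mitotic kinase, had 21.7, 21.1 and 25.1 FPKM in UIR, against 0.22, 0.21 and 0.24 FPKM in sham. The groups did not overlap, with a log2 fold of 4.27 ± 0.12 (limma, adjusted p = 2.1e-13).

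Foxm1 had 28.0, 23.4 and 27.5 FPKM in UIR day 3, against 0.29, 0.29 and 0.35 FPKM in sham day 3. That was a log2 fold of 4.38 ± 0.10 (limma, adjusted p = 4.7e-14), with no overlap. Cdc25c, a phosphatase that activates CDK1, was the lowest of the entry genes, with 4.71, 6.30 and 7.12 FPKM in UIR, against 0.03, 0 and 0 FPKM in sham. It was listed at 0 in 5 of the 18 libraries, and its log2 fold was 2.79 ± 0.10 (limma, adjusted p = 2.3e-12). The other entry genes, Ccna2 (cyclin A2), Ccnb2 (cyclin B2), Plk1, Top2a (topoisomerase II alpha, which untangles sister chromatids) and the kinase gene Melk, had log2 folds between 3.87 and 5.13. Cyclin B2 averaged 47.1 ± 7.51 FPKM in UIR day 3, above cyclin B1 at 34.4 ± 3.39 FPKM in the same libraries (SD, n = 3).

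The 9 genes of the spindle and its motors had a median log2 fold of 3.62 at day 3. Tpx2, which targets Aurora A kinase to spindle microtubules, was the highest, with 26.8, 25.3 and 30.0 FPKM in UIR, against 0.30, 0.55 and 0.61 FPKM in sham. It rose by 4.26 ± 0.12 (limma, adjusted p = 2.1e-13). Kif15, a plus-end motor that works beside the Eg5 motor Kif11, was the lowest, with 4.98, 4.20 and 5.80 FPKM in UIR, against 0.35, 0.17 and 0.23 FPKM in sham. It still did not overlap, at 2.26 ± 0.10 (limma, adjusted p = 1.4e-11), and was the member with the lowest mean level in UIR day 3, 4.99 FPKM. Between these lay Aurka (Aurora A), Nek2, Nusap1 (a microtubule-bundling protein), Kif11, Kif18b, Kif2c (MCAK, which shortens microtubules) and the chromokinesin Kif4, with log2 folds between 3.22 and 4.05.

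Over the 11 kinetochore and checkpoint genes the median log2 fold at day 3 was 3.46. Birc5, survivin, a subunit of the chromosomal passenger complex, was the highest, with 54.7, 52.8 and 69.5 FPKM in UIR, against 1.10, 1.00 and 0.48 FPKM in sham. It rose by 5.02 ± 0.16 (limma, adjusted p = 5.7e-13). Its kinase partner Aurkb (Aurora B) averaged 25.7 ± 1.26 FPKM in UIR and 0.287 ± 0.117 FPKM in sham (SD, n = 3), a log2 fold of 4.38. Cenpf, a large kinetochore protein, was the lowest, with 6.78, 6.02 and 8.11 FPKM in UIR, against 0.12, 0.10 and 0.15 FPKM in sham. Its groups did not overlap, at 2.82 ± 0.10 (limma, adjusted p = 2.2e-12). The microtubule-binding partners Ndc80 and Nuf2 had log2 folds of 3.08 and 3.46, the checkpoint kinases Ttk (MPS1) and Bub1 of 2.93 and 3.11, and the checkpoint genes Bub1b (BUBR1) and Mad2l1 of 3.89 and 3.58. Cenpa, the histone H3 variant that marks centromeres, was at 3.85 and the motor gene Cenpe at 2.88.

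The 4 anaphase genes had the widest range of log2 folds at day 3 of the 5 roles, between -0.74 and 5.12. Cdc20, the activator of the anaphase-promoting complex, had 50.05, 44.8 and 55.5 FPKM in UIR day 3, against 0.39, 0.53 and 0.48 FPKM in sham day 3. It rose by 5.12 ± 0.15 (limma, adjusted p = 2.4e-13). Ube2c, the ubiquitin-conjugating enzyme of that complex, was the member with the highest level in UIR day 3, 83.7 ± 6.42 FPKM against 2.60 ± 0.375 FPKM in sham (SD, n = 3), a log2 fold of 4.56. Espl1, separase, the protease that cuts cohesin, averaged 6.59 ± 0.671 FPKM in UIR and 0.127 ± 0.0321 FPKM in sham, a log2 fold of 2.75. Pttg1, which codes for its inhibitor, went the other way, with 31.8, 36.5 and 32.6 FPKM in UIR, against 59.9, 54.6 and 55.5 FPKM in sham. All UIR libraries were below all sham libraries, with a log2 fold of -0.74 ± 0.10 (limma, adjusted p = 4.1e-06), and it was lower under each of the scalings tried.

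All 5 cytokinesis genes were higher at day 3, with a median log2 fold of 4.08. Prc1, which bundles the antiparallel microtubules of the midzone, was the highest, with 40.5, 34.5 and 46.2 FPKM in UIR, against 0.42, 0.78 and 0.52 FPKM in sham. It rose by 4.72 ± 0.13 (limma, adjusted p = 1.7e-13). Ect2, the exchange factor that activates RhoA at the furrow, was the lowest, with 20.3, 19.0 and 23.4 FPKM in UIR, against 0.74, 0.50 and 0.62 FPKM in sham. No library of either group overlapped, and the log2 fold was 3.75 ± 0.11 (limma, adjusted p = 2.1e-13). Anln was at 4.39, Kif20a (MKLP2, which carries the passenger complex to the midzone) at 4.08 and Kif23 at 3.89. Kif23, already higher at day 1, had the smallest difference between days 3 and 1 of the cytokinesis genes, 2.54.

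**Figure D4:**
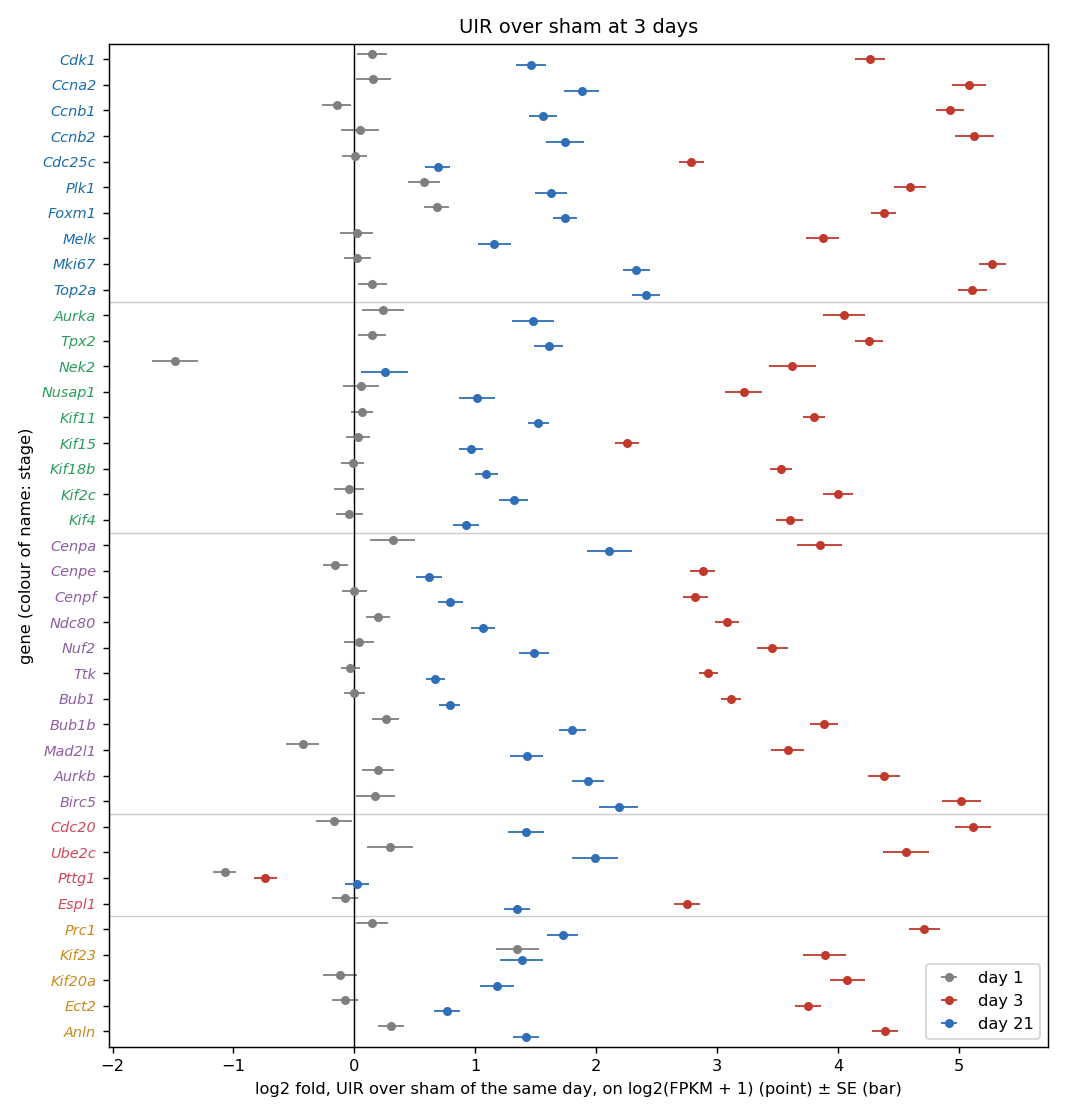
Log2 fold of UIR over sham of the same day (points) with its SE (bars) for 39 members at day 1 (grey), day 3 (red) and day 21 (blue), on log2(FPKM + 1). Day 3 lies to the right of day 21 for 38 members, and Pttg1 sits at -1.07, -0.74 and 0.02 at the 3 days.

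At day 21 most members were still higher in UIR than in sham, at a fraction of their day 3 level. As deposited, 37 of 39 were higher, none was lower, and Nek2 and Pttg1 did not pass; with quantile normalization 27 were higher and Nek2 was lower. Among all genes 60.7% were called higher and 20.1% lower. As 27 members reached the filter only through UIR days 3 and 21, their calls here were partly fixed in advance. Without a filter 37 members were higher as well, with 66.9% of all genes called. The median log2 fold was 1.42 over the members and 0.53 over all genes, and the members' median after subtracting the all-gene median was 0.89. The UIR libraries lay above all sham libraries in 37 members, against 62.8% of all genes. Of all calls at day 21, 75.2% were higher as deposited, 51.0% with median-of-ratios scaling and 49.2% with quantile normalization. Without UIR day 21 replicate 3, the library low in proximal tubule markers, 37 members were higher too, with a median of 1.32.

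Top2a had the highest fold at day 21, with 6.60, 5.80 and 8.31 FPKM in UIR, against 0.45, 0.63 and 0.35 FPKM in sham. Its groups were apart, at 2.41 ± 0.12 (limma, adjusted p = 4.8e-11). Mki67 had 5.99, 5.75 and 6.47 FPKM in UIR, against 0.34, 0.60 and 0.29 FPKM in sham, a log2 fold of 2.33 ± 0.11 (limma, adjusted p = 3.7e-11). Cenpa had 5.88, 6.58 and 10.7 FPKM in UIR, against 1.32, 0.82 and 0.80 FPKM in sham. Replicate 3 was the high UIR library, and the log2 fold was 2.11 ± 0.19 (limma, adjusted p = 3e-08). Ccnb1 had 2.32, 2.16 and 2.70 FPKM in UIR, against 0.14, 0.14 and 0.16 FPKM in sham, a log2 fold of 1.56 ± 0.12 (limma, adjusted p = 3.8e-09). Replicate 3 was the highest UIR day 21 library for 32 of the 38 members without Pttg1.

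Nek2 had 1.06, 1.41 and 1.94 FPKM in UIR day 21, against 1.16, 0.92 and 1.09 FPKM in sham day 21. The groups overlapped, and the log2 fold of 0.25 ± 0.19 did not pass (limma, adjusted p = 0.24). Pttg1 had 55.3, 46.8 and 50.4 FPKM in UIR, against 50.2, 51.0 and 48.7 FPKM in sham. It overlapped too, at 0.02 ± 0.10 (limma, adjusted p = 0.84), and with median-of-ratios scaling it was lower, at -0.59 (adjusted p = 1.4e-05). Cenpe and Ect2, with log2 folds of 0.62 and 0.77 as deposited, were at -0.20 and -0.11 with quantile normalization, neither past the threshold.

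The share of the day 3 level that was left at day 21 differed among the 38 members without Pttg1. Mean FPKM of UIR day 21 was a median of 11.9% of that of UIR day 3, with a range of 6.96% to 30.4%. Cenpa kept the highest share, 30.4%, followed by Kif15 (28.6%), Espl1 (26.8%), Nusap1 and Nuf2 (21.3% each) and Bub1b (21.0%). Ccnb1 kept the lowest share, 6.96%, followed by Nek2 (7.46%), Cdc20 (7.91%) and Ect2 (8.03%). Both ends of this order rest on UIR day 21 replicate 3: without it, in means recomputed after the data were seen, Kif15 was highest at 28.2% and Cenpa next at 24.6%, and Nek2 was lowest at 6.27% with Ccnb1 at 6.51%. Without any other UIR library of days 3 and 21, Cenpa stayed highest and Ccnb1 lowest. By role, the median share was 10.8% for entry genes, 12.9% for the spindle, 16.3% for kinetochore and checkpoint, 15.5% for the 3 anaphase genes without Pttg1 and 10.9% for cytokinesis, and the ranges of the roles overlapped. These shares are ratios of group means with the sham level not subtracted, and were not tested against each other. Nek2 averaged 1.47 FPKM in UIR day 21 and 1.06 FPKM in sham day 21, and Nusap1 4.57 and 1.75 FPKM. The order at both ends thus rests partly on the sham level.

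**Figure D5:**
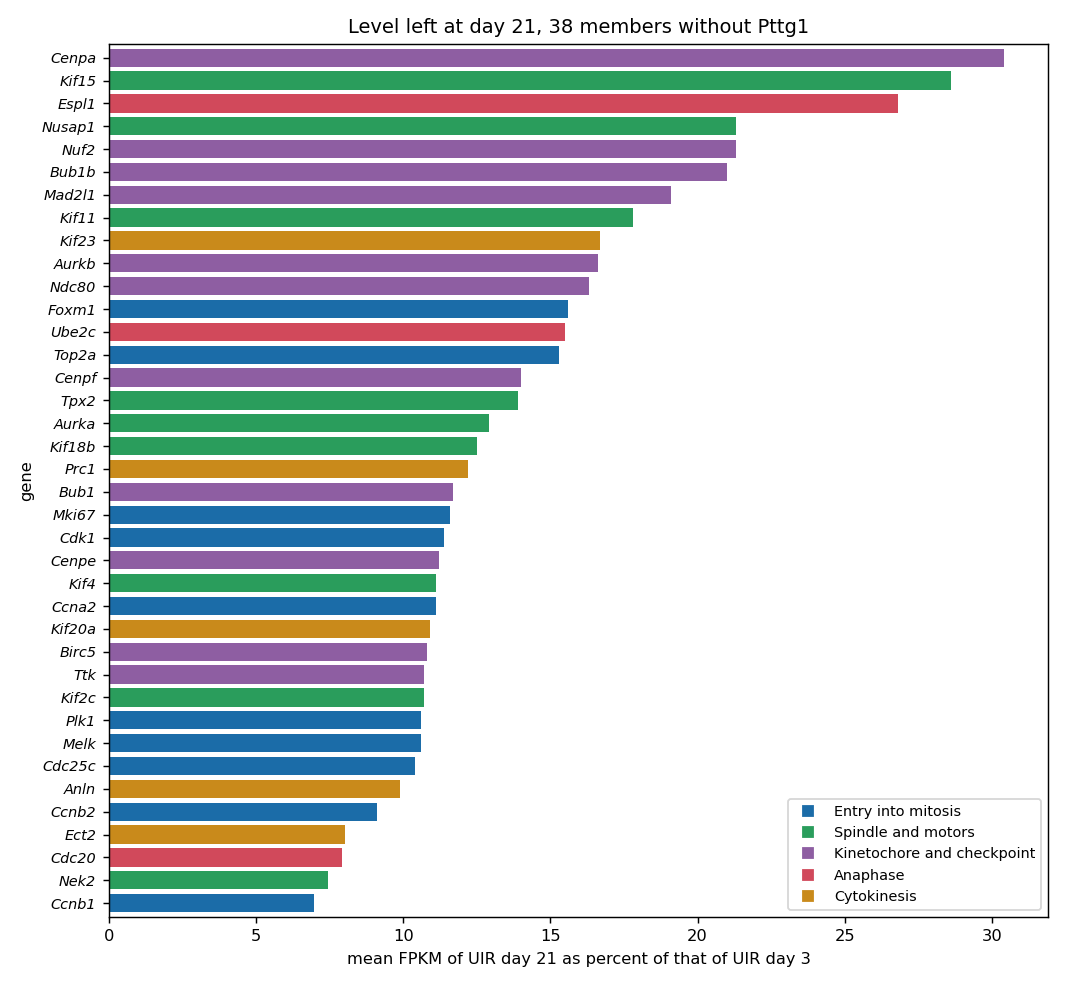
Mean FPKM of UIR day 21 as percent of the mean of UIR day 3 for 38 members without Pttg1, coloured by role. Bars run from 6.96% (Ccnb1) to 30.4% (Cenpa), and kinetochore genes hold several of the longer bars.

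The change of the UIR effect between days was tested directly, as the later effect minus the earlier effect. As 27 members reached the filter only through UIR days 3 and 21, their calls against day 1 were partly fixed in advance. Without a filter, 39 members were called between days 3 and 1, 39 between days 21 and 3 and 38 between days 21 and 1. The shares of all genes called there were 47.7%, 36.6% and 57.2%. Between days 3 and 1, the effect was higher at day 3 in 39 of 39 members, against 50.1% of all genes, with a median difference of 3.83. The largest was that of Cdc20, 5.29 ± 0.21 (limma, adjusted p = 4.7e-11), and the smallest that of Pttg1, 0.34 ± 0.14 (limma, adjusted p = 0.043); after subtracting the all-gene median Pttg1 was at -0.10. The call of Pttg1 rests on single libraries: it was lost in 8 of 12 fits that left out a library of these groups (adjusted p between 0.013 and 0.12 over all 12). These 8 were the fits without replicate 1 or 2 of UIR day 1 and without replicate 2 or 3 of UIR day 3, sham day 1 or sham day 3. With median-of-ratios scaling its sign turned (-0.23, adjusted p = 0.13). Between days 21 and 3, the effect was lower at day 21 in 38 members and higher in Pttg1 (0.76 ± 0.14; limma, adjusted p = 0.00037), against 20.2% lower and 26.1% higher of all genes. Between days 21 and 1, the effect was higher at day 21 in 38 members, against 54.1% of all genes. Under the scalings that centre all genes, 48.0% to 50.1% of calls between days 3 and 1 were higher rather than 79.7%, and 46.5% to 47.6% between days 21 and 1 rather than 76.9%. Between days 21 and 3 the share was 46.0% with quantile normalization rather than 56.4%. Quantile normalization left 20 members higher and 1 lower between days 21 and 1. Kif23 was the exception as deposited, with log2 folds of 1.39 at day 21 and 1.35 at day 1 and a difference of 0.04 ± 0.25 (limma, adjusted p = 0.90).

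Other genes of mitosis, from a list of 62 names, were higher at day 3 in 61 of 61 tested, against 57.6% of all genes, with a median log2 fold of 2.86. The largest were those of Cdca3 (4.66), Cdca8, the passenger complex subunit borealin (4.46), Racgap1, the partner of Kif23 in centralspindlin (4.40), and Iqgap3 (4.26). Ccnb1ip1 was not tested, at a mean of 0.0133 FPKM in UIR day 3. As with the members, listed genes that reached the filter only through UIR days 3 and 21 had to differ. Their number was not counted, here or in the gene lists that follow. At day 1, 8 were higher and 8 lower, smaller shares than the 28.5% and 31.1% of all genes, and at day 21, 56 were higher and 2 lower, against 60.7% and 20.1%. The lower ones at day 21 were Spc25, a subunit of the NDC80 complex, with a mean of 6.12 FPKM in UIR and 9.79 FPKM in sham (log2 fold -0.60), and Depdc1b, with 1.89 FPKM in UIR and 9.09 FPKM in sham (-1.81). Spc25 averaged 5.81 FPKM in UIR day 1 and 34.4 FPKM in sham day 1, so its sham level, like that of Pttg1, was above every sham value of the other 38 members.

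Of 35 DNA replication genes, 14 were higher and 6 lower at day 1, against 28.5% and 31.1% of all genes. At day 3, 34 were higher and at day 21, 32, against 57.6% and 60.7% of all genes. Rrm2, a subunit of ribonucleotide reductase, had a log2 fold of 2.07 at day 1 and 5.33 at day 3, Uhrf1, a reader of hemimethylated DNA, of 0.83 and 4.75, and the helicase subunits Mcm5 of 0.66 and 4.24 and Mcm3 of 0.73 and 4.03. Gmnn, geminin, an inhibitor of replication licensing, was lower at day 21 (-0.36). The summed FPKM of the 38 members without Pttg1 over that of the 35 replication genes was 0.127 to 0.173 in UIR day 1, 1.04 to 1.09 in UIR day 3 and 0.423 to 0.503 in UIR day 21, against 0.140 to 0.171 in the 9 sham libraries. UIR day 3 stood apart from every other group in this ratio, and UIR day 1 overlapped the sham libraries.

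G1 and S phase regulators were higher in 14 of 15 genes at day 3, led by E2f8 (3.68), Ccne1 (cyclin E1, 2.68), E2f1 (2.37) and Cdk6 (2.28), against 57.6% of all genes, and in 14 of 15 at day 21, against 60.7%. At day 1, 4 were higher and 2 lower, against 28.5% and 31.1%. Of 15 regulators of late cell cycle transcription, 11 were higher and 2 lower at day 3, against 57.6% and 17.9% of all genes, led by Mybl2, which codes for B-MYB (2.75), Tfdp1 (2.09), Rbl1, which codes for p107 of the DREAM complex (1.79), and E2f4 (1.31). Lin52, a MuvB subunit, was lower (-0.82) and so was E2f5 (-0.21). At day 1 this list had 5 higher and 6 lower, against 28.5% and 31.1% of all genes. At day 21 it had 9 higher and 1 lower of 15, and the higher share is near the 60.7% of all genes. Core subunits of the anaphase-promoting complex and its activator Fzr1 (CDH1) were higher in 12 of 15 genes at day 3, against 57.6% of all genes, led by Fzr1 (1.75), Anapc1 (1.26), Cdc27 (1.25) and Anapc2 (0.96), with Anapc13 lower (-1.79). Their median log2 fold at day 3 was 0.56, beside 0.44 for all genes. At day 1, 4 were higher and 1 lower, against 28.5% and 31.1% of all genes, and at day 21, 12 and 1, against 60.7% and 20.1%.

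A list of 17 genes held cell cycle inhibitors and checkpoint genes, not all of which act in G2 or mitosis. Of these, 15 were higher and 0 lower at day 3, against 57.6% and 17.9% of all genes. The largest were those of Cdkn1a, the CDK inhibitor p21 (3.93), Pkmyt1, a kinase that holds CDK1 inactive (3.23), Chek1 (2.51) and Sfn, 14-3-3 sigma (2.51). At day 1, 8 were higher and 2 lower, against 28.5% and 31.1% of all genes, and at day 21, 15 were higher and Ccng1 was lower (-0.72), against 60.7% and 20.1%. Cdkn1a had a mean of 337 FPKM in UIR day 1, 66.4 FPKM in UIR day 3 and 72.9 FPKM in UIR day 21, against 54.5, 3.45 and 4.18 FPKM in sham days 1, 3 and 21. Its log2 fold was thus 2.68 at day 1, when most members had not passed, and 3.84 at day 21, when the members had fallen to a median of 1.42.

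Markers of other cell types moved with the groups, and their part in the members' result was not tested. The summed FPKM of 11 macrophage markers was 572, 412 and 266 in UIR day 3 and 1862, 1727 and 2417 in UIR day 21, against 53.5, 61.6 and 48.8 in sham day 3 and 49.8, 58.4 and 59.4 in sham day 21. The macrophage sum was thus higher at day 21 than at day 3, while the summed FPKM of the 38 members was 124, 116 and 163 at day 21. Within UIR day 3, replicate 3 had the lowest macrophage, T and NK cell and fibroblast sums (5 fibroblast markers, 317, 218 and 98.5 FPKM) and the highest sum of members. Within UIR day 21, replicate 3 had the highest of all these sums, with 119, 99.7 and 129 FPKM for T and NK cell markers and 678, 731 and 748 FPKM for fibroblast markers, against 3.47 to 4.76 FPKM and 27.7 to 35.6 FPKM in sham day 21. The 5 markers of injured tubule summed to 1504, 1569 and 1912 FPKM in UIR day 3, against 4.81 to 13.6 FPKM in sham day 3. In UIR day 1, when the members were near sham, the same markers summed to 2995 to 4334 FPKM, against 131 to 283 FPKM in sham day 1. Their median log2 fold over sham of the same day was 2.17 at day 1 and 5.74 at day 3. Proximal tubule markers summed to between 702 and 827 FPKM in UIR day 3, against 46830 to 54900 FPKM in sham day 3. Of 6 erythroid precursor markers, 2 stayed under 1 FPKM in all libraries, and the sum was 13.7 to 16.8 FPKM in UIR day 3, against 22.4 to 35.4 FPKM in sham day 3.

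Of the members, 7 overlap a protein-coding gene on the opposite strand that is also in the table (Ccna2 with Exosc9, Nusap1 with Oip5, Kif4 with Pdzd11, Cdc20 with Elovl1, Ube2c with Tnnc2, Prc1 with Rccd1 and Kif20a with Cdc23). The labels do not state whether counting used strand, so reads of these pairs may not be told apart and their levels are uncertain to that extent.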

How the data were processed

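The deposited table holds FPKM of 20825 genes in 18 kidney libraries, made by the authors. The submitters' processing notes name the build mm9 and list RSEM 1.2.12, HISAT2 2.0.4 and Bowtie2 2.2.5 without their roles. Their FPKM were not rescaled, and 2 column names lack the word FPKM but match their samples. No read counts were used, so depth is unknown and no count test was run. From the deposited FPKM, log2(FPKM + 1) was computed for 14716 genes with at least 1 FPKM in at least 3 libraries, and limma 3.58.1 (R 4.3.3, variance trend, 12 residual degrees of freedom) was fitted to all 18 libraries with a mean per group. P-values are two-sided and Benjamini-Hochberg adjusted over all genes tested, with a threshold of 0.05. The titles call the replicates biological, and the labels do not say how animals map to libraries. Promoter motifs were searched with Python 3.11.15 in RefSeq sequences of GRCm38.p6, and gene overlaps come from an annotation of the same build. The fits were tested on simulated data. Alternatives changed the pseudocount, filter, scaling, variance model, replicate block, libraries and the control of day 1. Library values are given for the members with the highest and lowest log2 fold of each role at day 3, for Mki67, Ccnb1, Cdk1 and Foxm1, and for members outside the common pattern. Of other lists, up to 4 called genes with the largest change at day 3 are named, and called genes that moved the other way, apart from a result that is not reported here. The members and lists were chosen with earlier results of these data known.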

Additional observations from a re-analysis of the deposited data

Results flagged for a closer look

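The UIR effect differed between days for nearly all members, by the limma test of the difference itself. It differed between days 3 and 1 in 39 members, between days 21 and 3 in 39, and between days 21 and 1 in 38. The shares of all genes called were 62.9%, 46.2% and 70.4%. The limit given above for members that reached the filter only through UIR days 3 and 21 holds here too. The call of Pttg1 between days 3 and 1 was lost in 8 of 12 fits that left out a library. In 2 genes the effects had opposite signs and both passed. Nek2 was lower in UIR at day 1 (-1.48) and higher at day 3 (3.62), a difference of 5.1 on the log2 scale. Mad2l1 was lower at day 1 (-0.43) and higher at days 3 and 21 (3.58 and 1.42), with differences of 4.01 and 1.85. Both genes were not past the threshold at day 1 when sham days 3 and 21 served as control.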

How the results depend on the processing

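Day 3 calls kept their side of the threshold and direction in all 661 gene results recomputed. At day 1, 681 gene results kept theirs, 8 gained and 11 lost the call, among the 11 Nek2, whose sign turned against the later sham groups (0.031, adjusted p = 0.88). At day 21, 649 kept theirs, 10 lost the call, all 10 with quantile normalization, and 2 gained one. Sign turned at day 21 for Pttg1 with median-of-ratios scaling (-0.59) and, with quantile normalization, for Nek2 (-0.64, adjusted p = 0.0088), Cenpe (-0.20) and Ect2 (-0.11); the cause was not tested. Quantile normalization left 21 members called in the difference between days 21 and 1, against 38, with 64.6% and 70.4% of all genes. Between sham days 3 and 1, 4 members became 7 with a pseudocount of 0.1 and 8 with library weights. The shares of all genes called were 42.5%, 43.9% and 56.7%. Between sham days 21 and 1, 6 became 11 with a pseudocount of 0.1, 2 with a pseudocount of 5 and 10 with library weights. The shares of all genes there were 39.4%, 40.6%, 37.7% and 54.3%. Library weights called 1 member between sham days 21 and 3, against 0, and 11.9% of all genes, against 0.034%. Leaving out 1 library gave 6 to 7 members at day 1, 38 to 39 in the difference between days 3 and 1, 3 to 4 between sham days 3 and 1 and 3 to 6 between sham days 21 and 1, where sham day 21 replicate 2 left out gave 3. The E2F-type site was in 3 genes with 100 bases before the start, against 5.

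The labels do not say whether replicate numbers pair the samples. Deviations from the group means correlated between -0.07 and 0.11 for same-numbered UIR and sham libraries of a day. They were over 0.1 in 1 of 9 pairs of libraries. With 3 libraries a group, these values do not decide whether the samples pair. A replicate block gave 38 members in the difference between days 3 and 1, against 39, and 3 between sham days 3 and 1, against 4, and left the other 7 counts as they were. Unknown depth and values near 0 FPKM limit what day 1 and sham comparisons can show, since most members lie under 1 FPKM there.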
